A study of Mus musculus with 8 samples.

Results

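Wnt signalling in the embryonic mouse lung was followed through 10 genes: the R-spondins Rspo1, Rspo2 and Rspo3, their receptor gene Lgr4, the ligand genes Wnt2, Wnt5a, Wnt7b and Wnt11, the nuclear effector gene Lef1 and the target gene Axin2. The members were all probe sets annotated to exactly 1 of these symbols. They came to 19 of 45037 probe sets on the array type used for E18.5 lung, covering all 10 genes, and to 8 of 12422 probe sets on the older array type used for E11.5 tissue, covering 7 genes. Rspo3, Wnt2 and Lgr4 had no such probe set on the older type.

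The study asked how the lung before birth responds to misexpressed MIA, a small secreted protein known from melanoma cells and cartilage, and how early lung and early trachea differ in the genes they express. RNA from 8 samples of the FVB/N strain was hybridised to Affymetrix 1-colour arrays. At E18.5 (E counts days of embryonic life), 3 arrays of lung RNA from MIA bitransgenic embryos, described as SP-C/MIA overexpressors, were set against 3 arrays from single transgenic littermates, described as SP-C/MIA controls. At E11.5, 1 array of lung RNA was set against 1 array of trachea RNA. The controls also carried a transgene, and the labels do not say which. SP-C is the surfactant protein C gene, whose promoter is active in the distal lung epithelium, while the RNA was lung RNA, not sorted by cell type as far as the labels say. The labels do not say that the samples were separate litters or whether embryos were pooled, so the p-values measure the spread between these samples.

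Wnt ligands bind Frizzled receptors with the co-receptors Lrp5 and Lrp6 and, in the canonical branch, keep beta-catenin from being degraded, so that it enters the nucleus and acts there with Lef1 and the related Tcf proteins. R-spondins are secreted proteins that bind Lgr receptors together with the ubiquitin ligases Znrf3 and Rnf43, which spares Frizzled receptors from removal and so strengthens the response to a Wnt ligand. In the mouse lung, Wnt2 and Wnt2b from the mesenchyme are needed to specify the lung progenitors, Wnt7b from the epithelium drives growth of the mesenchyme, and Rspo2 is needed for normal branching.

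The signals are linear MAS5 values, scaled to an equal trimmed mean of about 1500 on each array. The median signals lay between 415.3 and 464.2 at E18.5 and were 540.9 and 545.2 at E11.5. Mia itself averaged 38537 ± 6207 in bitransgenic lungs and 959 ± 194 in control lungs (SD, n = 3 each), so the labels matched the transgene. The 3' to 5' signal ratio of Actb, a sign of RNA quality, was 1.65, 1.51 and 1.61 in the bitransgenic arrays and 1.50, 1.47 and 1.28 in the control arrays, and thus was higher in every bitransgenic array. The signals of different probe sets have different scales, so no member's level was set against another's, and the E18.5 and E11.5 tables were not compared.

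At E18.5, Rspo2 was the 1 member that passed the test, and it was higher in the bitransgenic lungs. Changes are given on the scale of log2(signal + 86.4), which compresses those of dim probe sets, and were tested with limma over 12625 genes, each represented by its brightest probe set. Of the 10 members, 9 were bright enough to be tested. Of these, 1 rose, none fell and 8 did not pass the adjusted threshold of 0.05, which 0.673% of all genes tested passed (0.238% higher and 0.436% lower). At an unadjusted p under 0.05 there were 4 of 9 members, against 9.69% of all genes. The members were chosen with earlier results of these data known, so this is no independent comparison. The median log2 change of the 9 members was -0.09, against 0.014 for all genes.

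**Figure D1:**
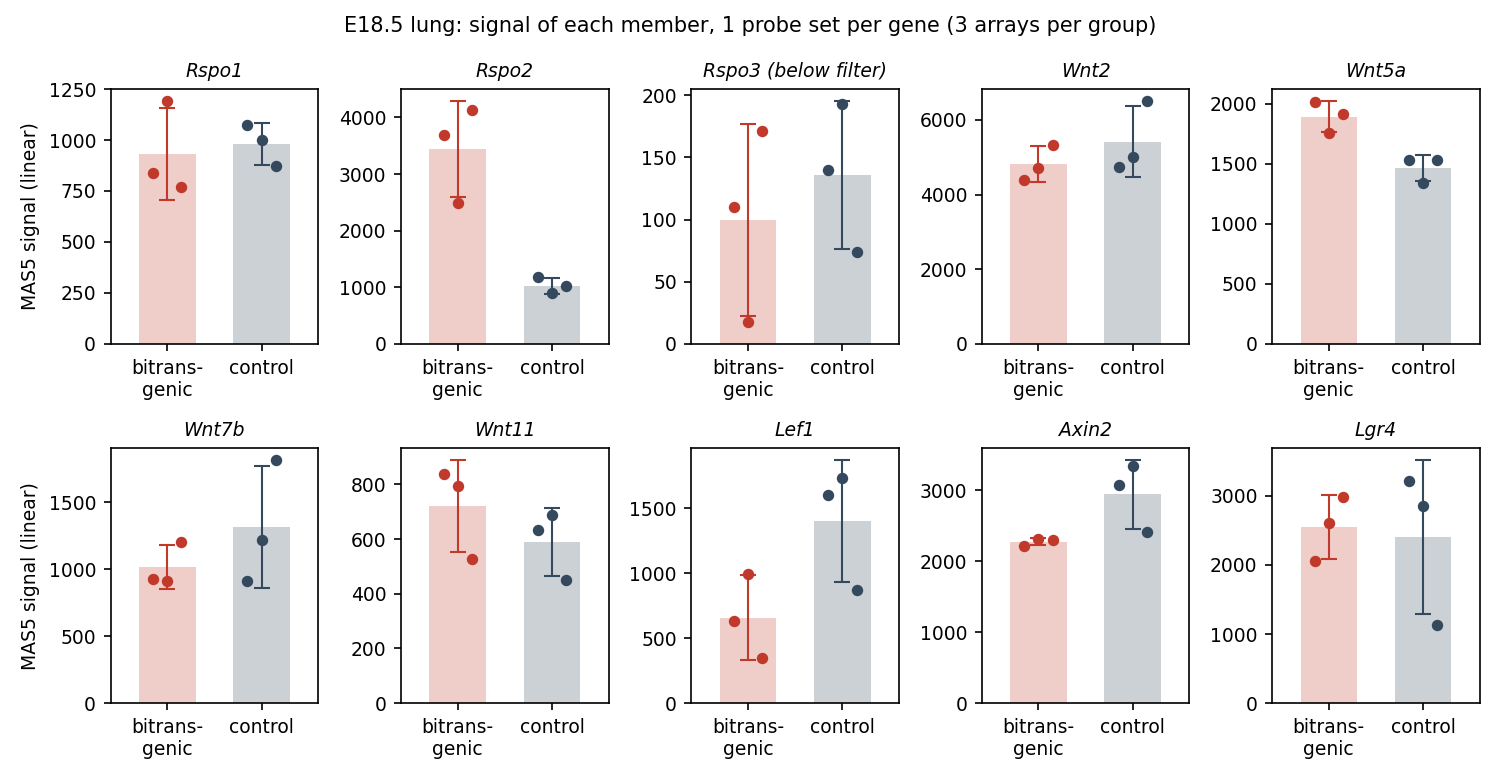
MAS5 signal (linear axis from 0) of the brightest probe set of each of the 10 members in E18.5 lung. Points are arrays, bars are means and error bars are SDs (n = 3 each), with bitransgenic lungs left of control lungs. The Rspo2 signals lie between 2498 and 4134 in bitransgenic lungs, above the control range of 894 to 1175.

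Rspo2 encodes the R-spondin known for its part in lung and limb outgrowth in the mouse. Its brighter probe set, 1455893_at, had signals of 3693, 2498 and 4134 in the bitransgenic lungs, against 1175, 894 and 1016 in the control lungs. Every bitransgenic array lay above every control array, which held for 16.4% of all genes tested in either direction and for 8.86% in this direction. The means were 3442 ± 847 in bitransgenic lungs and 1028 ± 141 in control lungs (SD, n = 3 each). The difference came to 1.64 log2 units (SE 0.20, limma adjusted p = 0.00729), a 3.12-fold rise with a 95% interval of 2.28 to 4.25. In a fit over 27022 probe sets, of which 0.444% passed, the same probe set also passed (limma adjusted p = 0.0109).

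The second Rspo2 probe set, 1430104_at, was dim and allows no statement on a change. Its signals were 26.8, 20.4 and 149 in the bitransgenic lungs and 20.3, 46.3 and 84.6 in the control lungs, and the groups overlapped. It stood at percentile 12.1 of all probe sets, below the filter at percentile 40, so the rise rests on 1 probe set. With the mean of both probe sets, the log2 change was 0.86 (limma adjusted p = 0.194). It was 1.40 when the Actb ratio was added to the model (limma adjusted p = 0.169). Leaving out control 2 gave 1.55 (limma adjusted p = 0.0504). A rise in lung RNA cannot tell more cells that make a transcript from more transcript per cell, and this holds for each E18.5 result.

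Among all genes tested, those with the array profile most like that of Rspo2 were Fam184a, Rtl3 and Cdh16. Likeness was measured by the root mean square difference between the log2 profiles over the 6 E18.5 arrays, each centred on its own mean. The differences were 0.28, 0.28 and 0.29 log2 units. The log2 changes of these genes were 1.28 for Fam184a, 1.73 for Rtl3 and 1.60 for Cdh16, a cadherin gene best known from kidney. Changes near that of Rspo2 follow from choosing genes by their likeness to it over the same arrays.

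Rspo1 encodes another R-spondin. Its single probe set had signals of 839, 1191 and 767 in the bitransgenic lungs, against 1074, 1001 and 870.4 in the control lungs. The groups overlapped, and bitransgenic 2 was the highest of all 6 arrays. The change of -0.09 log2 units (SE 0.19, limma adjusted p = 0.933) had a 95% interval of -0.51 to 0.34, which does not reach the size of the Rspo2 change. It ran from -0.26 to 0.030 with 1 array left out. Mesothelium, a known source of Rspo1 in some embryonic organs, was followed with 5 markers, whose summed signal was 10259 to 13539 in bitransgenic lungs and 19246 to 30722 in control lungs. The gap between these sums lay in Msln, which had 4681 to 6956 in bitransgenic lungs and 13539 to 22387 in control lungs. Of the 5 markers, Msln fell by 1.61 on the log2 scale and the other 4 did not pass, with Upk3b at -0.01. The part of these cells in the Rspo1 values was not tested.

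Rspo3, an R-spondin gene with a known role in blood vessels in the mouse, was close to background at E18.5 and was not tested. Its probe set 1455607_at had signals of 110.1, 18.01 and 171 in the bitransgenic lungs and 140.1, 193 and 73.9 in the control lungs. Its probe set 1443187_at had 58.0, 97.8 and 52.3 in the bitransgenic lungs and 93.9, 7.1 and 176 in the control lungs. The groups overlapped at both, and both were below the filter, at percentiles 23.9 and 17.1 of all probe sets. The 7 endothelial markers all had negative log2 changes, where 52.6% of all genes had a change above 0, and none passed the threshold. Their summed signal was 38619 to 43375 in bitransgenic lungs and 50884 to 68982 in control lungs. The part of these cells in the Rspo3 values was not tested.

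Lgr4 encodes a receptor for all R-spondins. Its brighter probe set had signals of 2056, 2601 and 2981 in the bitransgenic lungs, against 3209.6, 2856 and 1135 in the control lungs. Control 3 was far below the other control arrays, and the groups overlapped. The change was 0.19 log2 units (SE 0.33, limma adjusted p = 0.904). Since it was -0.26 without control 3 and -0.58 when the Actb ratio was added to the model, no direction can be given. The second Lgr4 probe set was dim, with 56.4 to 102.6 in bitransgenic lungs and 53.2 to 95.7 in control lungs.

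None of the Wnt ligand genes among the members passed the test. Wnt2, the mesenchymal ligand of lung specification, had signals of 4379, 4718 and 5331 in the bitransgenic lungs and 4746, 4996 and 6499.9 in the control lungs. The groups overlapped, and the log2 change was -0.16 with a 95% interval of -0.51 to 0.19 (limma adjusted p = 0.822). That change was 0.10 when the Actb ratio was added to the model and ran from -0.25 to -0.022 with 1 array left out.

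Wnt5a, a ligand that mostly signals without beta-catenin, through receptors such as Ror2, had 4 probe sets that all passed the filter. The brightest, 1436791_at, had signals of 2013, 1758 and 1912 in the bitransgenic lungs and 1530.35, 1344 and 1533 in the control lungs. All bitransgenic arrays were above all control arrays there, as for 8.86% of all genes tested. The change of 0.35 log2 units (SE 0.14) did not pass over all genes (limma adjusted p = 0.445). At the other probe sets the groups overlapped. Of these, 1437673_at had 645, 675 and 390.5 in bitransgenic lungs and 419, 435 and 482 in control lungs, and 1456976_at had 389, 479 and 579.5 against 224, 311 and 573. Probe set 1448818_at went the other way, with 1461, 1157 and 693 in bitransgenic lungs and 945, 1043.5 and 1518 in control lungs. The log2 changes of these 3 probe sets were 0.28, 0.38 and -0.11, so the probe sets of Wnt5a differed in direction. With the mean of all 4 probe sets the log2 change was 0.22.

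Wnt7b, the ligand of the lung epithelium, did not pass the test at either of its probe sets. The brighter one, 1420892_at, had signals of 926, 913 and 1204 in the bitransgenic lungs and 914, 1218 and 1813 in the control lungs. The groups overlapped, and the change was -0.31 log2 units (SE 0.23, limma adjusted p = 0.761). At the dimmer 1420891_at, designed on the same transcript sequence, the signals were 212, 276 and 62.3 in bitransgenic lungs and 329.5, 399.8 and 456 in control lungs. There every bitransgenic array was below every control array, as at 16.6% of all probe sets tested in either direction. Its log2 change was -0.92 (limma adjusted p = 0.396 over all probe sets). At the brighter probe set the log2 change was -0.064 without control 3, -0.53 without control 1 and 0.12 when the Actb ratio was added to the model. With the mean of both probe sets it was -0.62 (limma adjusted p = 0.284). The 6 epithelial markers had a summed signal of 125290 to 148740 in bitransgenic lungs and 129427 to 139489 in control lungs, with none past the threshold. Most of this sum was Sftpc, so it says little of the others. Of the 6 markers, 4 had the higher mean in bitransgenic lungs. Epcam was higher in every bitransgenic array, at 0.63 log2 units (limma adjusted p = 0.378). The part of epithelial cells in the Wnt7b values was not tested.

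Wnt11, another ligand that mostly signals without beta-catenin, had 1 probe set. It read 836, 796 and 527 in the bitransgenic lungs and 631, 686 and 451 in the control lungs, with overlapping groups. Its log2 change was 0.25 with a 95% interval of -0.25 to 0.75 (limma adjusted p = 0.801). The change ran from 0.091 without control 3 to 0.43 without bitransgenic 3, and was 0.014 when the Actb ratio was added to the model.

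**Figure D2:**
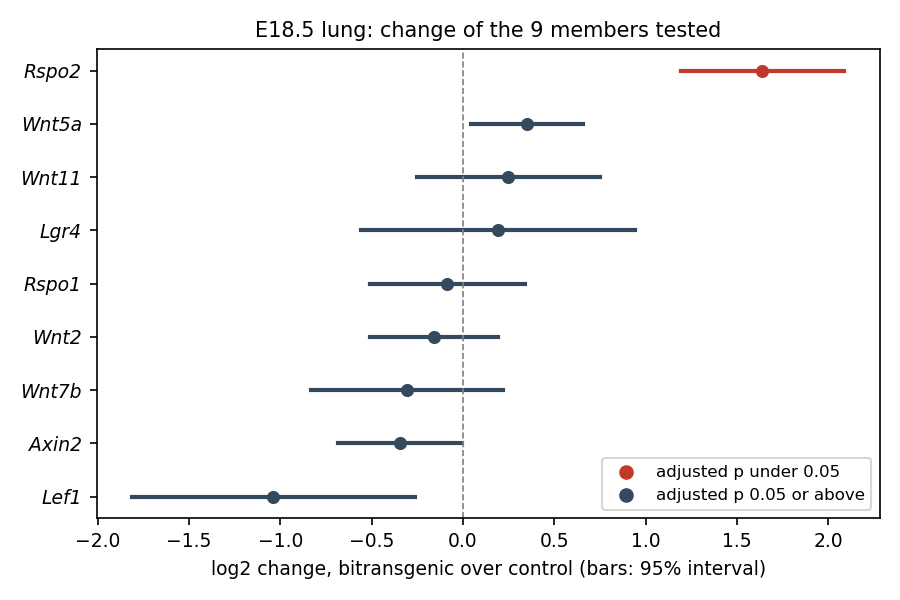
Log2 change, bitransgenic over control, of the 9 members tested at E18.5, with 95% intervals from the limma fit that are not adjusted for the number of genes. Rspo2, at 1.64, is the 1 member past the adjusted threshold, while Lef1, at -1.04, has the widest interval among those that exclude 0.

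Lef1 encodes a DNA-binding partner of beta-catenin and had the most negative log2 change of the members. Its brighter probe set, 1454734_at, had signals of 636, 995 and 347 in the bitransgenic lungs and 1605, 1732 and 867 in the control lungs. Bitransgenic 2 lay above control 3, so the groups overlapped. The change of -1.04 log2 units (SE 0.34, 95% interval -1.81 to -0.27) did not pass over all genes (limma adjusted p = 0.345). The dim probe set 1421299_a_at had 107, 81.4 and 19.2 in bitransgenic lungs and 112, 189.9 and 80.7 in control lungs. T cells also express Lef1, and the 4 T cell markers on the array summed to 188.9 to 256 in bitransgenic lungs and 194.5 to 305.2 in control lungs, with each of them too dim to be tested.

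Axin2 encodes an inhibitor of beta-catenin that is itself a target of the pathway and is widely read as a measure of canonical signalling. Its brighter probe set had signals of 2216, 2317 and 2291 in the bitransgenic lungs and 3069.5, 3339 and 2407 in the control lungs. Each bitransgenic array was below each control array, as for 7.56% of all genes tested. The change of -0.34 log2 units (SE 0.15, 95% interval -0.68 to -0.01) did not pass over all genes (limma adjusted p = 0.504). It was -0.12 with the mean of both probe sets and -0.56 when the Actb ratio was added to the model. Its second probe set was dim, with 79.6 to 142.6 in bitransgenic lungs and 63.0 to 170.1 in control lungs.

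Lef1 encodes the nuclear effector among the members and Axin2 is a target gene of the pathway, so the DNA around their start sites is shown. RefSeq promoter windows on GRCm38.p6, from 250 bases before to 50 after a start site, were at hand for 6 of the 10 members, with 10 windows in all. Rspo2, Rspo3, Wnt5a and Wnt7b had no window and were not searched. The windows were searched on both strands for CTTTGA, whose reverse complement is TCAAAG, a core shared by many binding sites of Lef1 and Tcf proteins. The letters stood in 16% of all 32851 windows. Among the members they stood 2 times in the fourth Lef1 window (chr3:131156044-131156343, + strand), 180 and 120 bases before the start site, and 1 time in a Wnt11 window, 50 bases before it. They were not in the single Axin2 window (chr11:108920099-108920398, + strand), nor in the other Lef1 windows. The fourth Lef1 window belongs to a start site far downstream of the first (window at chr3:131110047-131110346), which had no match. The sequences run 5′ to 3′, with the match in capitals, and the Lef1 sequence is that of the fourth window.
Lef1: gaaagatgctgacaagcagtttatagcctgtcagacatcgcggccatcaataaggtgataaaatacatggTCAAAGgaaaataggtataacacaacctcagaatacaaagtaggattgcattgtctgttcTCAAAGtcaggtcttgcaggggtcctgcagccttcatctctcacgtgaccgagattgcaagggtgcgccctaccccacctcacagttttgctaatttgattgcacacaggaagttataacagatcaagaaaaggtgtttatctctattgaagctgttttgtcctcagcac
Axin2: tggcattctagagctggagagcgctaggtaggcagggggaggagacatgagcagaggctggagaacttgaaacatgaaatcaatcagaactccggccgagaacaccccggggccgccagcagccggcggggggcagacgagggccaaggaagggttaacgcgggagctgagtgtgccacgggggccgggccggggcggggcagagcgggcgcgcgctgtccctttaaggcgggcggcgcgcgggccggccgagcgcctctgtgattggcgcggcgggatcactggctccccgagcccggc
A match describes the letters of the window and is not a measured binding site.

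Beyond the members, 94 other genes of the pathway were grouped by role, of which 92 had a probe set at E18.5 and 70 were tested. Of the 70 genes, none rose, 1 fell and 69 did not pass, where 0.673% of all genes passed. An unadjusted p under 0.05 was found for 12 of the 70, against 9.69% of all genes. The lists were chosen with earlier results of these data known, so this is no independent comparison. The gene behind the count of 1 that passed depended on the setting, being Notum with the mean of each gene's probe sets and Tle2 without control 3. With array weights, a setting that called 1339 genes in all in place of 85, 18 of the 70 passed. The median log2 change was 0.09, with 45 of 70 above 0, against 52.6% of all genes. Groups did not overlap in 10 genes that were higher and 6 that were lower in the bitransgenic lungs, against 16.4% of all genes in both directions.

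The gene that fell was Wnt7a, a ligand of the same subfamily as Wnt7b. It had signals of 573, 568 and 478 in the bitransgenic lungs and 1083, 1013 and 1151 in the control lungs. All bitransgenic arrays were below all control arrays, as for 7.56% of all genes tested. The change was -0.90 log2 units (SE 0.16, limma adjusted p = 0.0409). In the fit over all probe sets it missed the threshold (limma adjusted p = 0.0505). The call was also lost in each fit that left out 1 array, with adjusted p between 0.0774 and 0.163, with no filter (limma adjusted p = 0.103), with the mean of its probe sets (log2 change -0.28), and when the Actb ratio was added to the model (log2 change -0.81, limma adjusted p = 0.568). A second Wnt7a probe set that passed the filter had a log2 change of 0.02. Of the 5 other ligand genes tested, Wnt3a had a log2 change of -0.82 and Wnt5b of 0.46. When the Actb ratio was added to the model these were -0.37 and 0.015, and Wnt5b was 0.22 without control 3 and 0.063 without control 3 and bitransgenic 3.

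Among the 14 receptor genes tested, none passed. Fzd5, a Frizzled receptor gene, averaged 2232 ± 273 in bitransgenic lungs and 1306 ± 133 in control lungs (SD, n = 3 each), a change of 0.73 log2 units (limma adjusted p = 0.0787). Ror2, the receptor gene for Wnt5a, averaged 2211 ± 210.4 in bitransgenic lungs and 1502 ± 23.6 in control lungs (SD, n = 3 each), a change of 0.53 log2 units (limma adjusted p = 0.171). Fzd6 had a log2 change of 0.20. In these 3 genes, and in Fzd8 at 0.22, every bitransgenic array was above every control array, as for 8.86% of all genes tested. With the mean of each gene's probe sets the log2 changes were 0.30 for Fzd5 (limma adjusted p = 0.704), 0.30 for Ror2 and 0.33 for Fzd6, while Fzd5 passed without control 3 and bitransgenic 3 (limma adjusted p = 0.0375).

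Outside the members, the 4 tested genes of the R-spondin axis all had positive log2 changes, against 52.6% of all genes, and none passed. They were Lgr6 at 0.49, Lgr5 at 0.24 and the ubiquitin ligase genes Rnf43 at 0.41 and Znrf3 at 0.21, and their size depended on the setting. Of the members of this axis, Rspo2 rose, Rspo1 was at -0.09 and Lgr4 had no clear direction. When the Actb ratio was added to the model Lgr6 was 1.02, Rnf43 0.12 and Znrf3 -0.047. With the mean of each gene's probe sets Lgr6 was 0.18 and Znrf3 0.11. With 1 array left out Lgr6 ran from 0.29 to 0.71, Rnf43 from 0.24 to 0.56 and Znrf3 from 0.072 to 0.28. None of the 4 ligand secretion genes passed. Wls, which carries Wnt proteins to the cell surface, had a log2 change of 0.31, and of 0.20 without control 3. At Wls all bitransgenic arrays were above all control arrays, as for 8.86% of all genes tested.

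Of 10 tested genes of extracellular antagonists none passed. Notum, an enzyme that inactivates Wnt ligands and is a target of the pathway, averaged 624 ± 109.8 in bitransgenic lungs and 1176 ± 20.4 in control lungs (SD, n = 3 each), a change of -0.84 log2 units (limma adjusted p = 0.0687). It passed in 3 of 17 alternative settings. Of these, the mean of each gene's probe sets gave limma adjusted p = 0.0372. Leaving out control 3 and bitransgenic 3 gave limma adjusted p = 0.0303, and array weights gave limma adjusted p = 0.00069. Notum missed the threshold when the Actb ratio was added to the model (limma adjusted p = 0.571). No fit with 1 array left out passed (limma adjusted p between 0.0902 and 0.298). Wif1, which encodes a secreted inhibitor that binds Wnt ligands, stood at -0.78 log2 units (limma adjusted p = 0.248). At Notum and Wif1 every bitransgenic array was below every control array, as for 7.56% of all genes tested.

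Of the 8 tested target and feedback genes none passed, and 3 had log2 changes above 0, against 52.6% of all genes. Tnfrsf19, a receptor gene of the tumour necrosis factor family, stood at -0.76 log2 units (limma adjusted p = 0.077), the matrix protein gene Ccn4 had -0.59 (limma adjusted p = 0.31) and the feedback inhibitor gene Nkd1 had -0.45 (limma adjusted p = 0.386). In these 3 genes every bitransgenic array was below every control array, as for 7.56% of all genes tested. The target gene Cd44 went the other way, at 0.25 log2 units (limma adjusted p = 0.576). Every bitransgenic array was above every control array there, as for 8.86% of all genes tested. Tnfrsf19 was at -0.47 with the mean of its probe sets and passed without control 3 and bitransgenic 3 (limma adjusted p = 0.0325). It passed in 2 of 17 alternative settings, the other being array weights. No fit of Tnfrsf19 with 1 array left out passed (limma adjusted p between 0.0604 and 0.298). The median of the 8 genes was -0.22.

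Of 9 tested genes of nuclear effectors none passed, and 8 had log2 changes above 0, against 52.6% of all genes. The co-repressor gene Tle2 stood at 0.63 log2 units (limma adjusted p = 0.141) and Tcf7l1, which encodes a Tcf protein that mainly represses, had 0.60 (limma adjusted p = 0.177). In both, every bitransgenic array was above every control array, as for 8.86% of all genes tested. Without control 3, Tle2 passed (limma adjusted p = 0.0364), as it did when bitransgenic 3 was left out as well (limma adjusted p = 0.0266). It passed in 3 of 17 alternative settings, array weights among them, and in 1 of 6 fits with 1 array left out. Tcf7l1 was at 0.27 when the Actb ratio was added to the model. None of 15 tested relay genes inside the cell passed, and the 3 with the smallest p were Gsk3a at -0.43, Csnk1e at -0.37 and Btrc at 0.26. When the Actb ratio was added to the model Gsk3a was -0.21 and Csnk1e -0.0092, and with the mean of each gene's probe sets Btrc was 0.021.

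**Figure D3:**
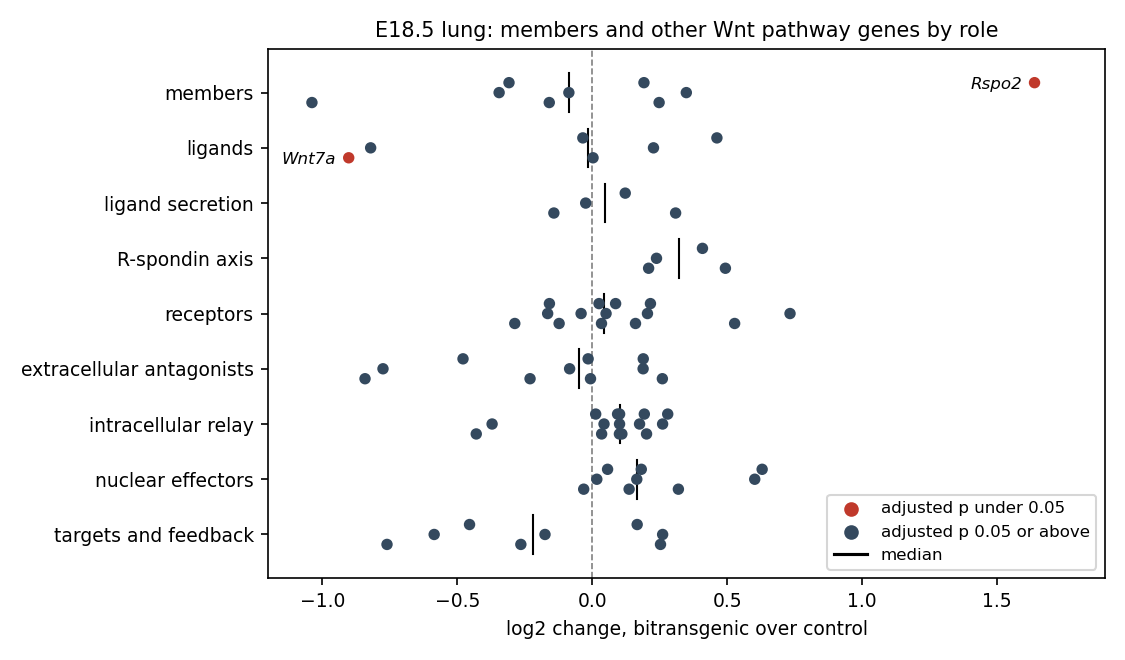
Log2 change, bitransgenic over control, of the 9 members tested and of 70 other Wnt pathway genes by role in E18.5 lung. Points are genes and black lines are medians of each row. Rspo2 (1.64) and Wnt7a (-0.90) are the genes past the adjusted threshold.

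At E11.5, with 1 lung array and 1 trachea array, there was no replicate check and no test, so each ratio describes these samples alone. Ratios are on the scale of log2(signal + 84.3). Of the 7 members on this array type, 4 met the filters on brightness and none of them was over 2-fold apart, while 3.42% of 5114 genes compared were (1.17% higher in lung and 2.25% higher in trachea). The mesenchymal markers summed to 41233 in lung and 55264 in trachea, and the smooth muscle markers to 7206 in lung and 15938.5 in trachea. The epithelial markers summed to 7428 in lung and 4649.7 in trachea. Among them, Sftpc, a gene of the distal lung epithelium, read 1503 in lung and 257 in trachea, while Epcam read 287 and 323. The part of these cell types in the ratios below was not tested.

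**Figure D4:**
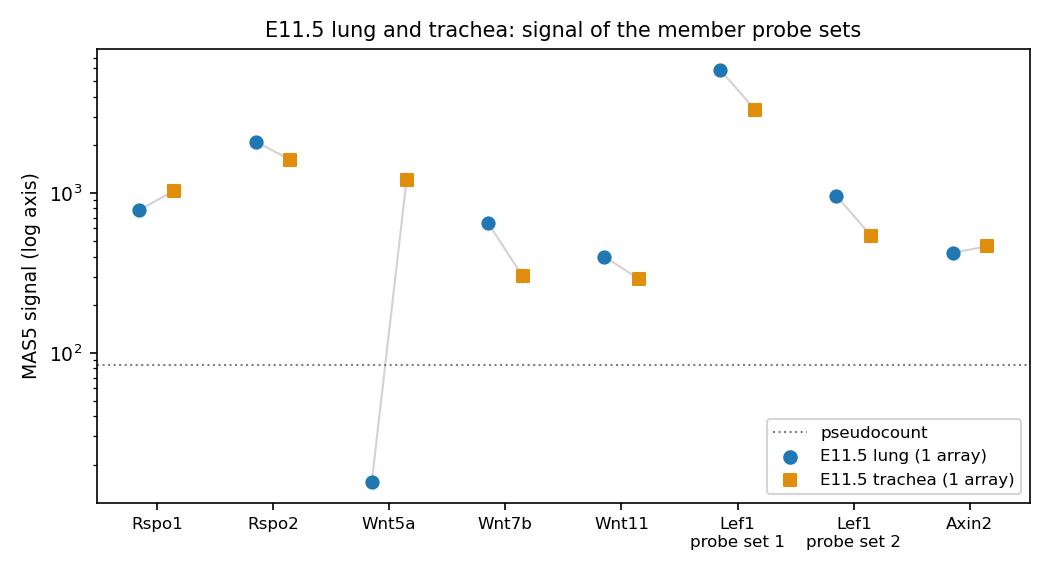
MAS5 signal (log axis) of the 8 member probe sets in E11.5 lung (circles) and E11.5 trachea (squares), 1 array each, with the pseudocount as a dotted line. Wnt5a reads 15.5 in lung and 1207 in trachea, while no other probe set is over 2-fold apart once the pseudocount is added.

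Both R-spondin genes on the older array type gave similar signals in the tissues. Rspo2 read 2093 in lung and 1610.1 in trachea, a log2 ratio of 0.36. Rspo1 read 782 in lung and 1034 in trachea, a log2 ratio of -0.37.

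Among the ligands, Wnt5a stood apart on the trachea side. It read 15.5 in lung, below the pseudocount, and 1207 in trachea, a log2 ratio of -3.69. Its mean was below the filter, so it was not among the genes compared, and the ratio depends on the pseudocount, from -5.07 with 0.25 times as much to -2.13 with 4 times as much. Wnt7b was higher in lung, with 651 against 301 in trachea, a log2 ratio of 0.93. That ratio passed 2-fold, at 1.06, with 0.25 times the pseudocount. Wnt11 read 400.04 in lung and 291 in trachea, both below the median signal of the table, with a log2 ratio of 0.37.

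Lef1 was on the lung side at both of its probe sets, which were designed on the same transcript sequence and are not independent. The brighter one read 5882 in lung and 3313 in trachea, a log2 ratio of 0.81, and the other read 959 in lung and 538 in trachea, a log2 ratio of 0.75. Axin2 read 423 in lung and 463 in trachea, both below the median of the table, and its log2 ratio was -0.11.

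Of 61 other pathway genes with a probe set at E11.5, 40 met the filters and 2 of them were over 2-fold apart. Ror1, a receptor gene related to Ror2, read 701 in lung and 243 in trachea, a log2 ratio of 1.26. Tle1, a co-repressor gene, read 671 in lung and 1834 in trachea, a log2 ratio of -1.34. The receptor gene Fzd7 had a log2 ratio of 0.97, and Sfrp1, which encodes a secreted Frizzled-related inhibitor, had -0.87. The median log2 ratio of the 40 genes was 0.0034, against -0.0070 for all genes compared.

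The settings used for the Rspo2 test are compared in a plot of its log2 change under each. It was positive under all 17 alternatives, from 0.86 to 1.85, and passed the adjusted threshold in 14 of them.

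**Figure D5:**
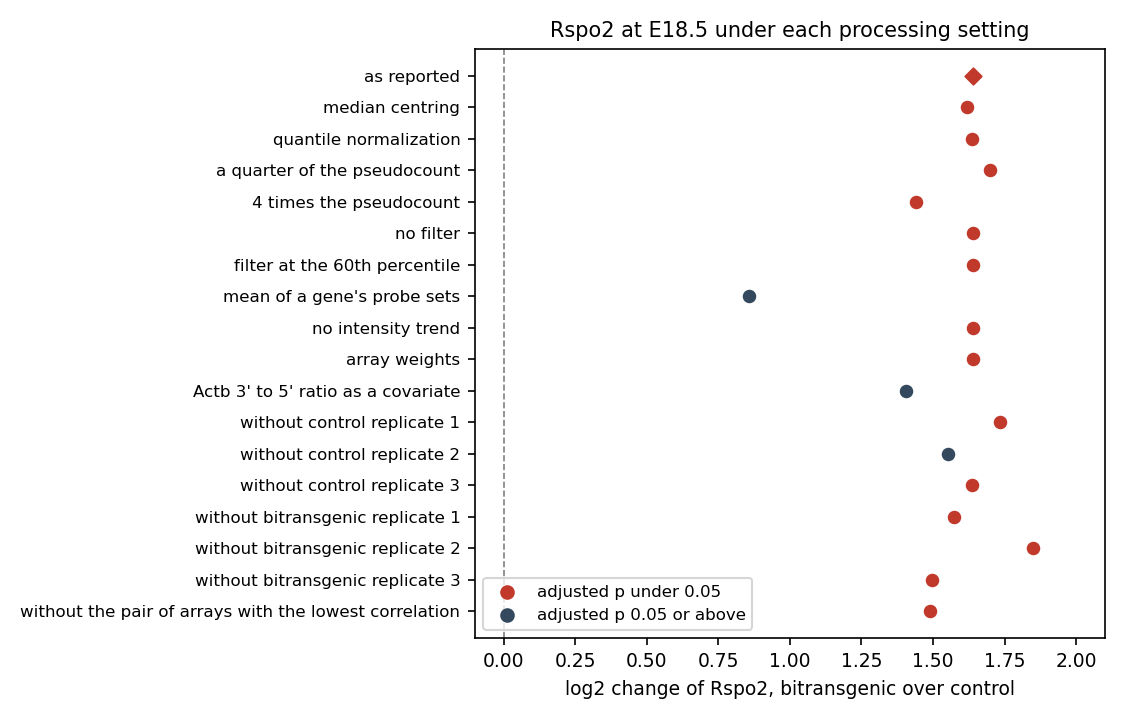
Log2 change of Rspo2, bitransgenic over control, in E18.5 lung as reported (diamond, 1.64) and under 17 alternative settings (circles). The 3 settings that miss the adjusted threshold are the mean of the gene's probe sets (0.86), the Actb ratio in the model (1.40) and the fit without control 2 (1.55).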

How the data were processed

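RNA was measured on 6 arrays of E18.5 lung, 1 array of E11.5 lung and 1 array of E11.5 trachea. Per the submitters' processing notes the deposited values came from MAS5, with no version given in the sources used here, and their unit is intensity (a linear signal, no detection calls). The 64 and 66 control probe sets were dropped and GEO's platform annotation named the rest. Each value became log2(signal + pseudocount), with the 20th percentile of its table as pseudocount (86.4 at E18.5, 84.3 at E11.5). The probe set of highest mean stood for its gene. Genes with a mean under the 40th percentile (signals of about 251 and 305) were not tested or compared. Bitransgenic and control lungs were set against each other with limma 3.58.1 (R 4.3.3, lmFit, eBayes with trend, no covariate, no pairing in the labels), two-sided, adjusted by Benjamini-Hochberg over all genes tested. Exact permutation of 3 arrays against 3 gives no p under 0.1. At E11.5 the higher signal also had to exceed the table median, 543. The fit was also tested on simulated data with known changes. It recovered 17.6% of 1.5-fold, 59.6% of 2-fold, 85% of 3-fold and 94% of 4-fold changes. A gene that did not pass can thus still have changed. How many arrays there are limits the precision.

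The members, pathway lists and markers were chosen with earlier results of these data known. The text names all members, other pathway genes past the threshold, up to 3 per role by p (by ratio at E11.5), and the 3 profiles most like that of a called member, without clone names. Lgr5, Fzd8, Cd44, Msln, Upk3b, Epcam and Sftpc were named after their values were seen. The plots used matplotlib 3.10.9.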

Additional observations from a re-analysis of the deposited data

How the results depend on the processing

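No paired analysis was possible because no replicate number in the labels is shared by bitransgenic and control arrays, and each E11.5 tissue has 1 array. The count of 85 genes past the threshold at E18.5 was 1339 with array weights, 20 with the Actb ratio as a covariate and 187 without control 3 and bitransgenic 3, and ran from 22 to 97 with 1 array left out. The count of 1 other pathway gene was 0 with no filter and with the Actb ratio, 18 with array weights, 5 without control 3 and bitransgenic 3, and 0 to 1 with 1 array left out (Tle2, without control 3). That last pair of arrays, with the lowest correlation with the others, was chosen after the data were seen. Rspo2 had 0.86 with the mean of its probe sets, one of them near background, and 1.40 with the Actb ratio, neither past the threshold, and ran from 1.50 to 1.85 with 1 array left out. With array weights Wnt5a (0.43), Lef1 (-1.07) and Axin2 (-0.51) passed. Lgr4 reversed to -0.22 with array weights, -0.58 with the Actb ratio and -0.38 without control 3 and bitransgenic 3, and ran from -0.26 to 0.46 with 1 array left out. With the Actb ratio Wnt2 (0.10), Wnt7b (0.12) and Znrf3 (-0.047) reversed. With 1 array left out Rspo1 ran from -0.26 to 0.030, Tmed5 from -0.26 to 0.023 and Porcn from -0.042 to 0.34. At E11.5 the count of 175 genes was 95 with 4 times the pseudocount, where Wnt5a had -2.13, Wnt7b 0.63 and Wnt11 0.23, and with 0.25 times the pseudocount Wnt5a had -5.07 and Wnt7b 1.06. Except for the pseudocount, the cause of these shifts was not tested. The dim second probe sets of Rspo2, Lef1, Axin2 and Lgr4, and both of Rspo3, lie near background and allow no statement on a change.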
